A study of Homo sapiens with 16 samples.

Results

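The 37 genes described here carry the NRF2 antioxidant response, glutathione and thioredoxin chemistry, the disposal of superoxide and peroxide, iron storage and the lipid side of ferroptosis. They were taken by symbol from a table of 19898 genes. All 37 were present, and all 37 passed the filter on low values that left 16984 genes for testing. RNA was sequenced from SH-SY5Y, a cloned human neuroblastoma line, after 15 days of differentiation toward a dopamine-like neuron. The design crossed a toxin with a culture format and asked how the surroundings of the cells alter features of Parkinson's disease. In the MPP 3D group, cells in a silk-collagen scaffold received 1 mM 1-methyl-4-phenylpyridinium (MPP) for 48 h from day 13. In the MPP 2D group, cells on flat dishes received the same dose for the same time. The untreated 3D and untreated 2D groups were the matching cultures without MPP, and each of the 4 groups held 4 libraries. MPP is a mitochondrial toxin that blocks complex I, the first enzyme of the respiratory chain.

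NRF2, encoded by NFE2L2, is a transcription factor that the adaptor protein KEAP1 holds in the cytoplasm and hands to the proteasome. Oxidants and electrophiles modify KEAP1, NRF2 then accumulates, and it switches on genes for glutathione synthesis, quinone reduction, thioredoxin recycling and NADPH supply through a promoter motif called the antioxidant response element. Glutathione and thioredoxin pass electrons to peroxidases that clear hydrogen peroxide and lipid peroxides. Ferroptosis is an iron-dependent death in which peroxidised membrane lipids build up; GPX4 and AIFM2 (FSP1) restrain it, ACSL4 supplies the oxidisable lipids, and ferritin keeps iron out of the reaction. Dopamine neurons carry a high oxidant load because dopamine oxidises readily and because they lean on mitochondrial respiration.

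Read totals recovered from the deposited table were 36554574 to 38414859 per library in MPP 3D, 30399672 to 41813620 in MPP 2D, 24589435 to 34658873 in untreated 3D and 34643854 to 46359070 in untreated 2D. The share of reads from mitochondrially encoded genes averaged 2.78% ± 0.215 in MPP 3D, 1.60% ± 0.117 in MPP 2D, 5.21% ± 1.87 in untreated 3D and 11.3% ± 1.90 in untreated 2D (SD, n = 4 each), and untreated 3D replicate 1 had the highest share of its group at 7.97%. The dopamine-like label was only partly borne out. Of 13 dopamine neuron markers 7 were in the table, with TH, the enzyme that makes L-DOPA, at 4241, 595, 5585 and 341 normalised reads on average in MPP 3D, MPP 2D, untreated 3D and untreated 2D, while the dopamine neuron factor NR4A2 averaged 6.79, 7.13, 7.70 and 2.95 in the same order. DDC, which makes dopamine from L-DOPA, averaged 2851, 2301, 14143 and 2745, and SLC18A2, the vesicular monoamine transporter, averaged 6007, 1153, 3129 and 975. The 7 markers summed to 12048 to 15179 in MPP 3D, 3948 to 4278 in MPP 2D, 22034 to 24626 in untreated 3D and 4013 to 4282 in untreated 2D. By the test described below, 3D raised 4 of them and lowered 0 without toxin, and raised 3 and lowered 0 with MPP. The shares called were 57.1% and 42.9%, beside 46.1% and 38.9% of all genes. SLC6A3, LMX1A, FOXA2, EN1, ALDH1A1 and KCNJ6 were not analysed here. The summed level of 9 noradrenergic markers was 162971 to 210977 in MPP 3D, 246765 to 263262 in MPP 2D, 209618 to 241697 in untreated 3D and 264440 to 291532 in untreated 2D. Among them DBH, which makes noradrenaline from dopamine, averaged 94225, 128846, 115058 and 148729 in the same order. Whether the cells are nearer to dopamine or to noradrenergic neurons was not tested. In that test 3D raised 2 of the 9 noradrenergic markers and lowered 5 without toxin, and raised 2 and lowered 6 with MPP. That is 77.8% and 88.9% called, beside 46.1% and 38.9% of all genes. GATA2 averaged 10340 in untreated 3D against 6122 in untreated 2D, and 5977 in MPP 3D against 2790 in MPP 2D. Markers of the other states such cultures can hold also differed between groups. The 9 neuron markers summed to 69370 to 84027, 133683 to 156084, 71988 to 80184 and 126448 to 141281 in that order of groups. By the same test 3D raised 1 of them and lowered 8 without toxin, and raised 1 and lowered 7 with MPP, or 100% and 88.9% called. The 10 mesenchymal markers summed to 11027 to 11222, 16800.0 to 17796, 13639.6 to 14225 and 16549 to 17258. Of the 9 tested, 3D raised 2 and lowered 4 without toxin, and raised 2 and lowered 5 with MPP, or 66.7% and 77.8% called. The shares of all genes called are those given above, 46.1% without toxin and 38.9% with MPP. PRRX1 was at 0 in every library outside MPP 3D and in 3 of 4 within it, with a maximum of 11.1. Of 8 Schwann cell and glia markers 7 were in the table and summed to 9446 to 15113, 6255 to 7739, 5649 to 6138 and 3939 to 4239, mostly NGFR, with SOX10 at 0 in untreated 3D and at no more than 3.68 in any library.

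Values below are normalised read counts, that is, reads divided by 1 size factor per library, listed for replicates 1 to 4 or as mean ± SD over n = 4 libraries; they are not divided by gene length, so levels of different genes are not compared. A gene was called where the Benjamini-Hochberg adjusted p from limma over all 16984 genes, fitted on log2(value + 1), was under 0.05. SE is the standard error of the log2 difference. Whether the 4 libraries of a group stem from different dishes or scaffolds is not stated, so each p measures only the spread between libraries, which may be technical. Cells in 2D were detached with Accutase and scaffolds were frozen whole, so culture and handling cannot be told apart. In these bulk libraries fewer cells of a type and less RNA per cell cannot be told apart either.

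Under MPP, 12 of the 37 genes were called in the same direction on the dish and in the scaffold, led by falls of TXNIP and rises of NQO1 and OSGIN1. The share of all genes called in the same direction in both cultures was not counted, so whether 12 is many was not tested. Some of the 12, such as SOD1, PRDX2, TALDO1 and ACSL4, lost a call under some alternatives, as given below. In 2D, MPP changed 13 of the 37 genes, 6 higher and 7 lower, or 35.1%, beside 34.5% of all 16984 genes called (17.7% higher and 16.9% lower), so the share was near that of all genes. In 3D it changed 21, 10 higher and 11 lower, or 56.8%, beside 34.6% of all genes (17.0% higher and 17.6% lower). The 6 genes NQO1, OSGIN1, PGD, TKT, FTH1 and ACSL4 were higher with MPP in both cultures. Another 6 were lower in both, GCLM, TXNIP, PRDX1, PRDX2, SOD1 and TALDO1. None of the 37 was called in opposite directions. NFE2L2 was called in 2D alone, and GSR, GPX3, TXNRD2, PRDX5, PRDX6, SOD2, CAT, SLC40A1 and AIFM2 were called in 3D alone, while 15 genes had no MPP call. The 4 MPP values did not overlap the 4 untreated values for 17 genes in 2D, where 38.8% of all genes had groups apart, and for 15 genes in 3D, where 27.6% did. The median log2 difference over the 37 genes was 0.03 in 2D and 0.05 in 3D, beside 0.02 and 0.0033 over all genes.

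The balance of higher and lower calls moved with the scaling of the libraries. With equal library totals in place of size factors, the split among the 37 genes was 11 higher and 4 lower in 2D and 15 higher and 6 lower in 3D, the share of higher calls over all called genes was 70.3% against 51.1% as deposited in 2D and 66.0% against 49.0% in 3D, and the median of all genes sat at log2 0.12 in 2D and 0.098 in 3D. With equal totals of nuclear genes, a scaling that leaves the mitochondrial reads out, the split was 6 higher and 8 lower in 2D and 12 higher and 8 lower in 3D, with higher calls at 42.4% of all called genes in 2D and 59.4% in 3D. No called gene among the 37 changed direction under any of the 11 alternative settings or with any 1 of the 16 libraries left out.

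**Figure D1:**
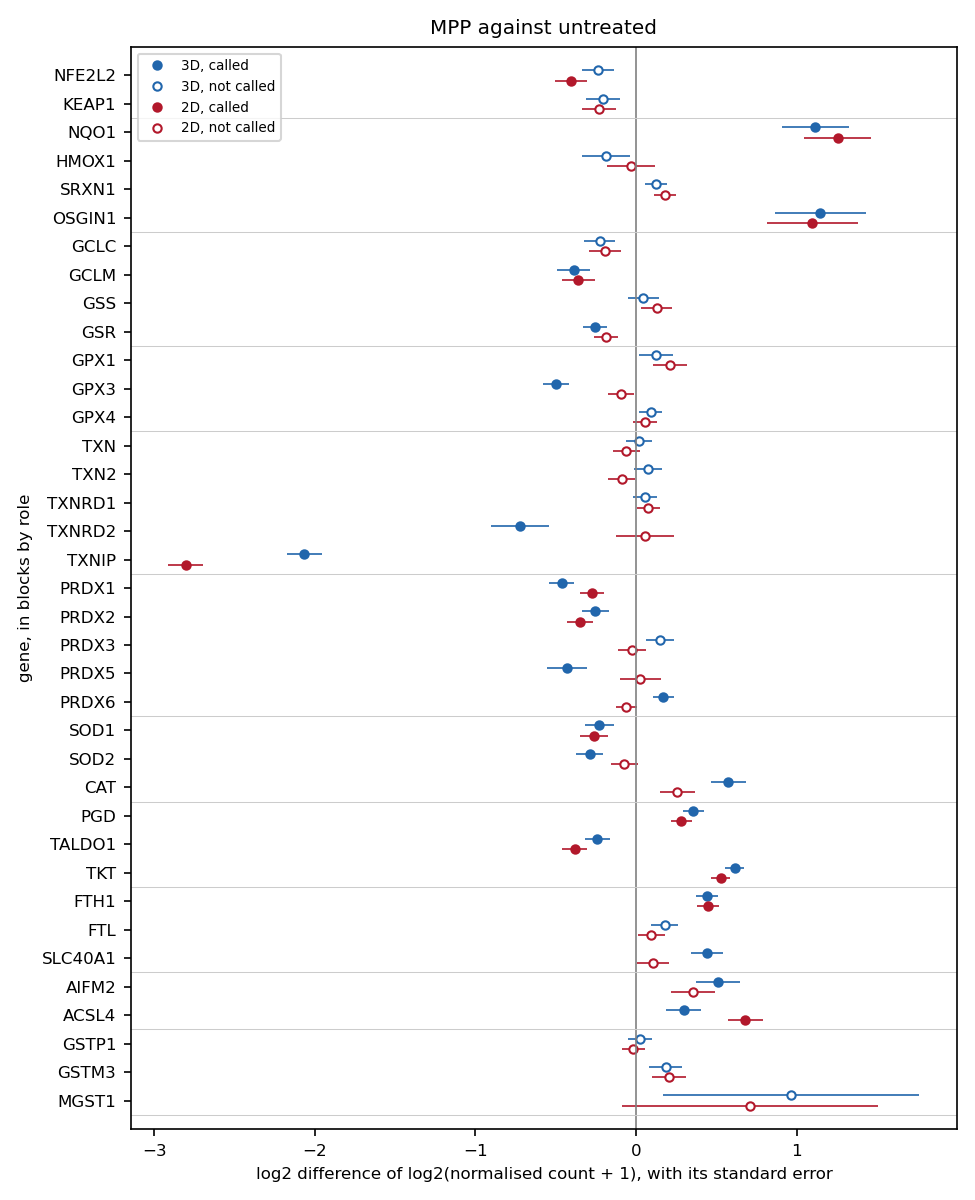
MPP minus untreated on the log2(normalised count + 1) scale for the 37 genes, in blocks by role, with 3D in blue above 2D in red; points are limma estimates, bars their standard errors and filled points called genes. NQO1 and OSGIN1 stand at 1.10 to 1.26 in both cultures, TXNIP at -2.06 in 3D and -2.80 in 2D, and most others lie within 0.5 of 0.

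Neither the transcription factor nor its sensor was called higher with MPP. NFE2L2 had 1671, 1528, 1548 and 1717 normalised reads in MPP 2D, against 2328, 2046, 2154 and 2028 in untreated 2D. All MPP values lay below all untreated ones, and NFE2L2 fell to 0.756 times the untreated 2D level (log2 -0.40, SE 0.10, adjusted p = 0.00322). In 3D, NFE2L2 had 1619, 1378, 1569 and 1538 with MPP, against 1803, 1647, 2299 and 1511 without, and those groups overlapped (log2 -0.23, SE 0.10, adjusted p = 0.0731). KEAP1, which targets NRF2 for destruction, had 1038, 1296, 1185 and 1253 in MPP 2D, against 1409.6, 1351, 1425 and 1387 in untreated 2D. The KEAP1 groups did not overlap in 2D, but the difference missed the threshold (log2 -0.23, SE 0.11, adjusted p = 0.101). KEAP1 gained a call for MPP in 2D with a fit of only the groups compared (adjusted p = 0.0243). In MPP 3D its values were 963, 1322, 1195 and 1252, against 1533, 1223, 1179 and 1533 in untreated 3D, with overlap (log2 -0.21, SE 0.11, adjusted p = 0.135). NFE2L2 gained a call for MPP in 3D without untreated 3D replicate 4 (adjusted p = 0.0154).

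Between the untreated cultures, NFE2L2 averaged 1815 ± 344 in 3D and 2139 ± 138 in 2D and was lower in 3D (log2 -0.25, SE 0.10, adjusted p = 0.0426). The NFE2L2 untreated 3D call against 2D was lost when any 1 of MPP 3D replicate 4, MPP 2D replicates 1 and 3, untreated 3D replicates 1, 2 and 4 and untreated 2D replicates 1, 2 and 3 was left out (adjusted p = 0.05002 to 0.161), and with a fit of only the groups compared (0.0830), edgeR (0.0582) and DESeq2 (0.0537). KEAP1 averaged 1367 ± 192 in untreated 3D and 1393 ± 32.1 in untreated 2D, and neither gene was called between the MPP groups.

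Of the 4 genes grouped here as NRF2 target enzymes, 2 rose with MPP in each culture. Over all genes 17.7% were called higher in 2D and 17.0% in 3D. NRF2 also drives genes of glutathione synthesis, thioredoxin recycling and NADPH supply, which are given below and did not all rise. Among those, PGD was higher in both cultures, GCLM was lower in both, and GCLC and TXNRD1 were not called. NQO1, which reduces quinones without a semiquinone step, had 338, 357, 366 and 352 normalised reads in MPP 2D, against 98.2, 136, 158 and 223 in untreated 2D. In 3D it had 202, 295, 335 and 303 with MPP, against 105, 110.4, 150.2 and 155 without. In both cultures every MPP library was above every untreated library, and NQO1 was 2.39-fold higher in 2D (log2 1.26, SE 0.21, adjusted p = 7.76e-05) and 2.17-fold higher in 3D (log2 1.12, SE 0.21, adjusted p = 0.000257). OSGIN1, an oxidative stress gene linked to growth arrest, had 55.7, 111, 104 and 137 in MPP 2D, against 51.7, 47.3, 51.8 and 31.8 in untreated 2D. Its values in MPP 3D were 152, 148, 131 and 201, against 42.2, 90.4, 82.8 and 74.6 in untreated 3D. Again the groups did not overlap in either culture, and OSGIN1 was 2.14-fold higher in 2D (log2 1.10, SE 0.28, adjusted p = 0.00455) and 2.22-fold higher in 3D (log2 1.15, SE 0.28, adjusted p = 0.00308). By culture OSGIN1 was not called (log2 0.63, adjusted p = 0.0752 untreated, log2 0.68, adjusted p = 0.0629 with MPP), nor was NQO1 (log2 -0.20, adjusted p = 0.459 untreated, log2 -0.34, adjusted p = 0.215 with MPP). OSGIN1 gained a call between the untreated cultures without any 1 of MPP 2D replicate 1 and untreated 3D replicate 1 (adjusted p = 0.0155 to 0.0493). OSGIN1 gained a call between the MPP groups without any 1 of MPP 2D replicate 4 and untreated 3D replicate 1 (adjusted p = 0.0335 to 0.0408). It did so too with a fit of only the groups compared (adjusted p = 0.0453) and DESeq2 (0.0481).

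HMOX1, the heme oxygenase that frees iron from heme, did not pass the test. It had 266, 321, 354 and 309 in MPP 2D, against 331, 364, 320.4 and 265 in untreated 2D (log2 -0.033, SE 0.15, adjusted p = 0.890). In MPP 3D it had 208, 303, 283 and 318, against 359, 311, 314 and 274 in untreated 3D (log2 -0.19, SE 0.15, adjusted p = 0.349). The HMOX1 values overlapped in both cultures. SRXN1, sulfiredoxin, which repairs overoxidised peroxiredoxins, averaged 2564 ± 115 in MPP 2D and 2261 ± 59.7 in untreated 2D, with no overlap and a p just over the threshold (log2 0.18, SE 0.070, adjusted p = 0.0503). It averaged 3376 ± 228 in MPP 3D and 3096 ± 241 in untreated 3D (log2 0.13, adjusted p = 0.176). By culture SRXN1 was higher in 3D, both untreated (log2 0.45, adjusted p = 1.78e-05) and between the MPP groups (log2 0.40, adjusted p = 0.000114). SRXN1 gained a call for MPP in 2D without any 1 of MPP 3D replicate 1, MPP 2D replicate 1 and untreated 3D replicates 1, 2, 3 and 4 (adjusted p = 0.0349 to 0.0494). It did so too with equal library totals (adjusted p = 0.00345), a fit of only the groups compared (0.0124) and DESeq2 (0.0386). A minimum mean of 50 (adjusted p = 0.0440) and a pseudocount of 5 (0.0497) also gave that call. For MPP in 3D, SRXN1 gained a call with equal library totals (adjusted p = 0.0194) and equal nuclear totals (0.0404).

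**Figure D2:**
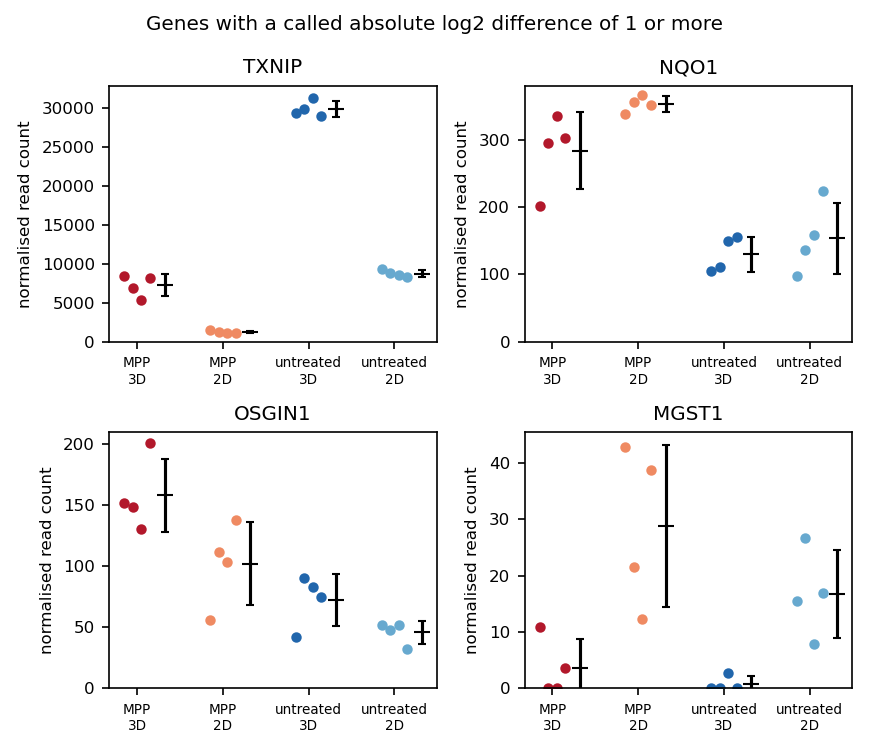
Normalised read counts in all 16 libraries for the 4 genes with a called absolute log2 difference of 1 or more in some comparison; points are replicates 1 to 4 from left to right, the line and bar are mean and SD (bars are cut at 0). TXNIP lies at 28889 to 31288 in untreated 3D and at 1078 to 1457 in MPP 2D, NQO1 and OSGIN1 are higher with MPP, and MGST1 is at or near 0 in 3D.

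The core of the antioxidant response element, TGACNNNGC, was looked for on both strands of RefSeq promoter windows of GRCh38.p14, from 250 bases before to 50 after each gene's start, because NRF2 is known to bind these letters. Windows were held for 29 of the 37 genes. Of the 29, 5, or 17.2%, contained the core, beside 3702 of 27305 promoters, or 13.6%. They are printed so that the letters between and around the fixed ones can be compared, 5′ to 3′ with the core in capitals.
GCLM (chr1:93909448-93909472, plus strand): gaagacaaTGACTAAGCagaaatcg
TXNRD1 (chr12:104215672-104215696, plus strand): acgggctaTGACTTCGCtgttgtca
TXNRD1 (chr12:104215763-104215787, minus strand): gtgggaacTGACGGAGCcgaaggac
PGD (chr1:10398855-10398879, minus strand): cacctagaTGACATTGCcccggcga
AIFM2 (chr10:70132831-70132855, plus strand): gcggggcgTGACTCAGCactcgtgc
GSTP1 (chr11:67583738-67583762, plus strand): cggcgccgTGACTCAGCactggggc
The AIFM2 and GSTP1 cores begin with TGACTCA, the motif of the AP-1 factors, so the motifs overlap there. The 5 genes did not move together with MPP: PGD was higher in both cultures, GCLM was lower in both, AIFM2 was higher in 3D, and TXNRD1 and GSTP1 were not called. The letters were not in the windows of NQO1 or OSGIN1, which says nothing of sites outside the windows. A match is a description of the sequence and not a measurement of binding.

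Glutathione synthesis and recycling genes fell or did not pass the test with MPP, and none of the 4 rose. GCLC and GCLM encode the catalytic and modifier subunits of glutamate-cysteine ligase, the rate-limiting step of glutathione synthesis. GCLM had 766, 654, 608 and 685 normalised reads in MPP 2D, against 863, 972, 869 and 776 in untreated 2D. In the scaffold GCLM had 573, 530.2, 529 and 664 with MPP, against 774, 781, 735 and 705 without. The MPP libraries were below the untreated ones without overlap in both cultures, and GCLM fell to 0.779 times in 2D (log2 -0.36, SE 0.10, adjusted p = 0.00876) and 0.764 times in 3D (log2 -0.39, SE 0.10, adjusted p = 0.00498); the GCLM MPP call in 2D was lost with equal library totals (adjusted p = 0.0514). GCLC had 1085, 997, 1061 and 937 in MPP 2D, against 1189, 1382, 1065 and 1046 in untreated 2D (log2 -0.19, adjusted p = 0.143). Its MPP 3D values were 1274, 1095, 1057 and 1059, against 1399.8, 1337, 1388 and 1129 in untreated 3D (log2 -0.23, adjusted p = 0.0820). The GCLC groups overlapped in both cultures, and GCLC was called in no comparison. GCLC gained a call for MPP in 3D without any 1 of MPP 3D replicate 1 and untreated 3D replicate 4 (adjusted p = 0.0250 to 0.0354). GCLC gained a call between the untreated cultures without untreated 2D replicate 2 (adjusted p = 0.0477). GCLM was not called by culture (log2 -0.21, adjusted p = 0.0922 untreated, log2 -0.24, adjusted p = 0.0659 with MPP), although leaving out MPP 3D replicate 4 and MPP 2D replicate 3 in turn gave adjusted p = 0.0255 and 0.0450 between the MPP groups. Between the untreated cultures GCLM gained a call with equal nuclear totals (adjusted p = 0.0196).

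GSR, the reductase that regenerates glutathione from its oxidised form, was lower with MPP in 3D at 1693 ± 159.7, against 2019 ± 115 in untreated 3D (log2 -0.26, SE 0.075, adjusted p = 0.0105). Its 2D means were 1443 ± 63.2 with MPP and 1642 ± 31.5 without (log2 -0.19, adjusted p = 0.0568). The GSR MPP call in 3D was lost with equal library totals (adjusted p = 0.108) and a fit of only the groups compared (0.0564). GSS, glutathione synthetase, averaged 1472 ± 244 in MPP 3D and 1412 ± 54.0 in untreated 3D, and 1845 ± 115 in MPP 2D and 1686 ± 105 in untreated 2D, with no MPP call. Culture split the pair. GSR was higher in 3D, untreated (log2 0.30, adjusted p = 0.00264) and between the MPP groups (log2 0.23, adjusted p = 0.0200), and GSS was lower in 3D in both (log2 -0.25, adjusted p = 0.0341 untreated, log2 -0.34, adjusted p = 0.00751 with MPP). The GSS untreated 3D call against 2D was lost when any 1 of untreated 3D replicates 1, 2 and 3 and untreated 2D replicates 1, 3 and 4 was left out (adjusted p = 0.0519 to 0.0975), and the GSR call between the MPP groups was lost when any 1 of MPP 3D replicates 2 and 3 and MPP 2D replicate 1 was left out (adjusted p = 0.0546 to 0.0785). GSR gained a call for MPP in 2D without any 1 of MPP 3D replicates 1 and 3, MPP 2D replicate 4 and untreated 3D replicate 3 (adjusted p = 0.0407 to 0.0494). It did so too with equal nuclear totals (adjusted p = 0.0188) and a fit of only the groups compared (0.0138). DESeq2 (adjusted p = 0.0474) and a minimum mean of 50 (0.0495) also gave that call.

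Of the glutathione peroxidases, GPX3 alone was called with MPP, and only in 3D. GPX3, the secreted enzyme, averaged 1740.3 ± 106 in MPP 3D and 2462 ± 273 in untreated 3D, without overlap (log2 -0.50, SE 0.080, adjusted p = 5.05e-05). In 2D it averaged 1566 ± 119.7 with MPP and 1669 ± 20.5 without (log2 -0.095, SE 0.080, adjusted p = 0.388). The MPP effects themselves differed between the cultures (difference 3D minus 2D, log2 -0.40, SE 0.11, adjusted p = 0.0183), and the GPX3 call on the difference of the MPP effects was lost with equal nuclear totals (adjusted p = 0.0665). Without toxin GPX3 was 1.47-fold higher in 3D than in 2D (log2 0.55, adjusted p = 6.99e-06), and between the MPP groups it was not called (log2 0.15, adjusted p = 0.140).

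GPX4, which reduces lipid hydroperoxides in membranes and is the main brake on ferroptosis, had 6485, 6322, 6479 and 7151 normalised reads in MPP 2D, against 6909, 6431, 6173 and 5909.6 in untreated 2D (log2 0.057, SE 0.074, adjusted p = 0.585). In MPP 3D it had 5559, 5441, 5850.4 and 5771, against 4885, 4787, 5633 and 6030.2 in untreated 3D (log2 0.091, SE 0.074, adjusted p = 0.367). The groups overlapped in both cultures. GPX4 gained a call for MPP in 3D with equal library totals (adjusted p = 0.0484). GPX4 was lower in 3D, both untreated (log2 -0.26, adjusted p = 0.00693) and between the MPP groups, where the libraries did not overlap (log2 -0.22, adjusted p = 0.0203); the GPX4 call between the MPP groups was lost when any 1 of MPP 3D replicate 2 and MPP 2D replicate 4 was left out (adjusted p = 0.0533 to 0.0745). GPX1, the cytosolic enzyme, averaged 3877 ± 513 in MPP 3D, 4956 ± 322 in MPP 2D, 3579 ± 701 in untreated 3D and 4272 ± 209 in untreated 2D. It had no MPP call and was lower in 3D untreated (log2 -0.27, adjusted p = 0.0380) and with MPP (log2 -0.36, adjusted p = 0.00914). The GPX1 untreated 3D call against 2D was lost when any 1 of untreated 3D replicates 1, 2 and 3 and untreated 2D replicates 1, 3 and 4 was left out (adjusted p = 0.0638 to 0.147), and with a fit of only the groups compared (0.0539) and DESeq2 (0.0502). GPX1 gained a call for MPP in 2D without untreated 3D replicate 4 (adjusted p = 0.0462). GPX1 gained a call for MPP in 3D without untreated 3D replicate 4 (adjusted p = 0.0324).

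TXNIP, the thioredoxin-interacting protein, which binds thioredoxin and also curbs glucose uptake, had the largest MPP differences of the 37 genes on the log2 scale in both cultures. It had 1457, 1322, 1078 and 1185 normalised reads in MPP 2D, against 9283, 8818, 8581 and 8333 in untreated 2D. The MPP 3D libraries had 8478, 6896, 5366 and 8234, against 29359.9, 29814, 31288 and 28889 in untreated 3D. The groups were far apart in both cultures. TXNIP fell to 0.143 times the untreated level in 2D (log2 -2.80, SE 0.11, adjusted p = 1.03e-14) and to 0.239 times in 3D (log2 -2.06, SE 0.11, adjusted p = 1.50e-12). The fall was smaller on the log scale in 3D (difference 3D minus 2D, log2 0.74, SE 0.15, adjusted p = 0.00158), a call that held under every alternative run. By culture, TXNIP was 3.41-fold higher in 3D than in 2D without toxin (log2 1.77, SE 0.11, adjusted p = 1.06e-11) and 5.69-fold higher with MPP (log2 2.51, SE 0.11, adjusted p = 4.59e-14).

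TXNIP is a known target of glucose-sensing transcription factors that bind paired CACG boxes, so its window is shown. The carbohydrate response element, a pair of CACGNG boxes with 5 bases between them, searched on both strands after the TXNIP values were seen, was in 20 of 27305 RefSeq promoters, or 0.0732%, and in TXNIP alone of the 29 genes with a window. It starts 88 bases before the gene's start, here written 5′ to 3′ on the gene's strand with the motif in capitals.
TXNIP (GRCh38.p14, chr1:145996643-145996675, minus strand): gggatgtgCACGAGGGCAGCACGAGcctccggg
The match describes these letters and is no measurement of a factor.

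The thioredoxins and their cytosolic reductase were not called with MPP. TXNRD1, the cytosolic thioredoxin reductase, had 6059, 5662, 5993 and 6210.5 in MPP 2D, against 5579.9, 5289, 5789.5 and 6023 in untreated 2D (log2 0.078, adjusted p = 0.446). In MPP 3D it had 5756, 6370.1, 7059.7 and 6822, against 5998, 6641, 6828 and 5595 in untreated 3D (log2 0.054, adjusted p = 0.613). These groups overlapped, and TXNRD1 was called in no comparison. TXNRD1 gained a call between the untreated cultures without untreated 3D replicate 4 (adjusted p = 0.0375). TXN, cytosolic thioredoxin, averaged 2058 ± 229 in MPP 3D, 2596 ± 89.2 in MPP 2D, 2026 ± 203 in untreated 3D and 2704 ± 58.1 in untreated 2D. It was lower in 3D by culture, untreated (log2 -0.42, adjusted p = 0.000217) and with MPP (log2 -0.34, adjusted p = 0.00210). TXN2, the mitochondrial form, averaged 1972 ± 144, 1564 ± 104, 1874 ± 214 and 1665 ± 114 in the same groups and was called between the MPP groups alone, higher in 3D (log2 0.33, adjusted p = 0.00408).

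TXNRD2, the mitochondrial thioredoxin reductase, was lower with MPP in 3D. Its values were 209, 330.2, 186 and 297 in MPP 3D, against 474, 379, 303 and 522 in untreated 3D (log2 -0.72, SE 0.18, adjusted p = 0.00320). MPP 3D replicate 2 lay above untreated 3D replicate 3, so the groups overlapped. In 2D the means were 381 ± 46.7 with MPP and 366 ± 31.6 without (log2 0.055, SE 0.18, adjusted p = 0.843). Between the MPP groups TXNRD2 was called lower in 3D without overlap, at 256 ± 69.1 in MPP 3D against 381 ± 46.7 in MPP 2D. It was not called between the untreated cultures. The MPP effects differed between the cultures (log2 -0.78, SE 0.25, adjusted p = 0.0405); the TXNRD2 call on the difference of the MPP effects was lost when any 1 of MPP 3D replicates 1 and 3, MPP 2D replicates 1, 2 and 3, untreated 3D replicates 1 and 4 and untreated 2D replicates 1, 2 and 3 was left out (adjusted p = 0.0566 to 0.0906), and with equal nuclear totals (0.0756).

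Peroxiredoxins, which reduce peroxides with thioredoxin or, for PRDX6, glutathione, fell or did not pass the test with MPP except for PRDX6. PRDX1, a cytosolic form, averaged 3861 ± 286 in MPP 2D and 4659.7 ± 220.2 in untreated 2D (log2 -0.27, SE 0.076, adjusted p = 0.00789), and 3355 ± 375 in MPP 3D and 4605 ± 205 in untreated 3D (log2 -0.46, SE 0.076, adjusted p = 5.88e-05), without overlap in either culture; the PRDX1 MPP call in 2D was lost with equal library totals (adjusted p = 0.0838). PRDX2, the other abundant cytosolic form, averaged 5175 ± 271 in MPP 2D and 6603 ± 681 in untreated 2D (log2 -0.35, SE 0.082, adjusted p = 0.00228). In 3D the PRDX2 means were 3543 ± 382 with MPP and 4209 ± 290.5 without (log2 -0.25, SE 0.082, adjusted p = 0.0204), and the PRDX2 MPP call in 3D was lost when any 1 of MPP 3D replicate 1 and untreated 3D replicate 4 was left out (adjusted p = 0.0617 to 0.0886), and with equal library totals (0.149), equal nuclear totals (0.0617) and a fit of only the groups compared (0.0571). PRDX5, found in mitochondria and peroxisomes, averaged 3560.3 ± 739 in MPP 3D and 4775 ± 887 in untreated 3D (log2 -0.43, SE 0.13, adjusted p = 0.0107); the PRDX5 MPP call in 3D was lost when any 1 of MPP 3D replicate 1 and untreated 3D replicate 4 was left out (adjusted p = 0.0508 to 0.0564). Its 2D means were 5672 ± 656 with MPP and 5555 ± 464 without (log2 0.027, adjusted p = 0.893). PRDX3, the mitochondrial form, averaged 3323 ± 228, 3324 ± 117, 3006 ± 317 and 3395 ± 421 in MPP 3D, MPP 2D, untreated 3D and untreated 2D and was called in no comparison. PRDX3 gained a call between the untreated cultures without any 1 of untreated 3D replicate 4 and untreated 2D replicate 2 (adjusted p = 0.0344 to 0.0432). It did so too with equal nuclear totals (adjusted p = 0.0158). For MPP in 3D, PRDX3 gained a call, as higher, with equal library totals (log2 0.24, adjusted p = 0.0365).

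PRDX6, which also acts as a phospholipase, was the exception at 5829 ± 206 in MPP 3D, against 5182 ± 321 in untreated 3D (log2 0.17, SE 0.065, adjusted p = 0.0462). That call was narrow: the PRDX6 MPP call in 3D was lost when any 1 of MPP 3D replicates 1, 2 and 4, MPP 2D replicates 1, 3 and 4, untreated 3D replicates 1 and 2 and untreated 2D replicates 3 and 4 was left out (adjusted p = 0.0512 to 0.155), and with no filter (0.0518) and a fit of only the groups compared (0.118). In 2D the PRDX6 means were 4218 ± 180.0 with MPP and 4407 ± 305 without (log2 -0.062, adjusted p = 0.496). By culture the family split. PRDX6 was higher in 3D, untreated (log2 0.23, adjusted p = 0.00542) and with MPP (log2 0.47, adjusted p = 6.29e-06), while PRDX2 was lower in 3D in both (log2 -0.65, adjusted p = 1.24e-06 untreated, log2 -0.55, adjusted p = 1.44e-05 with MPP). PRDX1 (log2 -0.21, adjusted p = 0.0355) and PRDX5 (log2 -0.69, adjusted p = 0.000158) were lower in 3D between the MPP groups, and the PRDX1 call between the MPP groups was lost when any 1 of MPP 3D replicates 1 and 2 and MPP 2D replicates 1 and 4 was left out (adjusted p = 0.0614 to 0.133), and with a fit of only the groups compared (0.0582). The PRDX6 untreated 3D call against 2D was lost with equal nuclear totals (adjusted p = 0.0530). PRDX5 gained a call between the untreated cultures without untreated 3D replicate 4 (adjusted p = 0.0190) and with equal nuclear totals (0.0454). PRDX5 gained a call in the difference of the MPP effects without MPP 3D replicate 2 (adjusted p = 0.0200).

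CAT, catalase, which breaks down hydrogen peroxide in peroxisomes, was higher with MPP in 3D, where both superoxide dismutases were lower. CAT averaged 795 ± 74.1 in MPP 3D and 534 ± 51.1 in untreated 3D, without overlap (log2 0.57, SE 0.11, adjusted p = 0.000303). In 2D it averaged 981 ± 126 with MPP and 818 ± 83.2 without (log2 0.26, SE 0.11, adjusted p = 0.0731), where it was called without MPP 2D replicate 3 (adjusted p = 0.0350) and with equal library totals (0.0125). SOD1, the cytosolic dismutase, averaged 3836 ± 190.1 in MPP 2D and 4602 ± 234 in untreated 2D (log2 -0.26, SE 0.088, adjusted p = 0.0247), and the SOD1 MPP call in 2D was lost when any 1 of MPP 2D replicate 1 and untreated 2D replicates 1, 3 and 4 was left out (adjusted p = 0.0502 to 0.0813), and with equal library totals (0.18). In 3D the SOD1 means were 3733 ± 518 with MPP and 4357 ± 455 without (log2 -0.23, SE 0.088, adjusted p = 0.0492). That call is at the edge of the threshold: the SOD1 MPP call in 3D was lost when any 1 of MPP 3D replicates 1 and 3, MPP 2D replicates 1, 2, 3 and 4, untreated 3D replicates 2 and 4 and untreated 2D replicates 1, 2, 3 and 4 was left out (adjusted p = 0.0541 to 0.205), and with equal library totals (0.266), equal nuclear totals (0.138), no filter (0.0543), a fit of only the groups compared (0.132), edgeR (0.0599) and DESeq2 (0.0519). SOD2, the mitochondrial dismutase, averaged 1379.6 ± 84.3 in MPP 3D and 1692 ± 202 in untreated 3D (log2 -0.29, SE 0.085, adjusted p = 0.0111), against 1647 ± 99.1 in MPP 2D and 1731 ± 110.3 in untreated 2D (log2 -0.072, adjusted p = 0.547); the SOD2 MPP call in 3D was lost when untreated 3D replicate 2 was left out (adjusted p = 0.0552), and with equal library totals (0.0835). By culture CAT was 0.654 times as high in untreated 3D as in untreated 2D (log2 -0.61, adjusted p = 9.05e-05) and lower in 3D with MPP (log2 -0.30, adjusted p = 0.0363), and SOD2 was lower in 3D with MPP (log2 -0.26, adjusted p = 0.0213). The CAT call between the MPP groups was lost when any 1 of MPP 3D replicates 2, 3 and 4 and MPP 2D replicates 1 and 2 was left out (adjusted p = 0.0764 to 0.125), and the SOD2 call between the MPP groups was lost when any 1 of MPP 3D replicates 1 and 2 and MPP 2D replicates 3 and 4 was left out (adjusted p = 0.0540 to 0.0689).

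The pentose phosphate pathway makes the NADPH on which glutathione and thioredoxin reductases run, and its 3 genes here split with MPP. TKT, transketolase, averaged 13718 ± 613 in MPP 2D and 9529 ± 632 in untreated 2D (1.44-fold, log2 0.53, SE 0.061, adjusted p = 7.80e-07). In 3D it averaged 14573 ± 405 with MPP and 9527 ± 460.2 without (1.53-fold, log2 0.61, SE 0.061, adjusted p = 7.03e-08). PGD, which makes NADPH from 6-phosphogluconate, averaged 8678 ± 356 in MPP 2D and 7138 ± 455 in untreated 2D (log2 0.28, SE 0.064, adjusted p = 0.00159), and 6739 ± 427 in MPP 3D and 5255 ± 222 in untreated 3D (log2 0.36, SE 0.064, adjusted p = 0.000156). For both genes all MPP libraries were above all untreated ones in each culture. TALDO1, transaldolase, was lower at 2003 ± 71.5 in MPP 2D, against 2614 ± 186 in untreated 2D (log2 -0.38, SE 0.080, adjusted p = 0.000765), and at 2154 ± 241 in MPP 3D, against 2535 ± 141 in untreated 3D (log2 -0.24, SE 0.080, adjusted p = 0.0230); the TALDO1 MPP call in 3D was lost when any 1 of MPP 3D replicates 1 and 2 and untreated 3D replicate 4 was left out (adjusted p = 0.0523 to 0.0990), and with equal library totals (0.169), equal nuclear totals (0.0812) and a fit of only the groups compared (0.0792). By culture PGD alone of the 3 was called, lower in 3D untreated (log2 -0.44, adjusted p = 7.40e-06) and with MPP (log2 -0.37, adjusted p = 9.76e-05).

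Several iron genes are translated under the control of the iron-responsive element, a hairpin in the 5′ UTR that iron regulatory proteins bind when iron is scarce, which holds back translation without setting the RNA level. A search of the 5′ UTRs of GENCODE 29 (GRCh38) for a C, 5 paired bases, the loop CAGTGN and 5 pairing bases found 38 of 20356 coding genes, or 0.187%, and 3 of the 37, FTH1, FTL and SLC40A1. The elements are shown because the RNA values below cannot read this layer of control, 5′ to 3′ with the loop in capitals.
FTH1 (chr11:61967575-61967601, minus strand): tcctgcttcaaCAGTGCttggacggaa
FTL (chr19:48965336-48965362, plus strand): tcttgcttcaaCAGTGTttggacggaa
SLC40A1 (chr2:189580662-189580688, minus strand): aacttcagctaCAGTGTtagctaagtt
The FTH1 and FTL elements differ at 2 of 27 letters, and that of the iron exporter SLC40A1 differs from each of them at 14 letters.

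Ferritin heavy chain rose with MPP and ferritin light chain differed by culture. FTH1, the heavy chain that oxidises iron for storage, had 47594, 50095, 47490.3 and 47681 normalised reads in MPP 2D, against 37419.9, 35109.7, 34721 and 34254 in untreated 2D. The MPP 3D values were 50711, 54531, 51668 and 56127, against 35756, 40613, 37118 and 43601 in untreated 3D. The groups did not overlap in either culture, and FTH1 was 1.36-fold higher in 2D (log2 0.45, SE 0.067, adjusted p = 2.14e-05) and 1.36-fold higher in 3D (log2 0.44, SE 0.067, adjusted p = 2.19e-05). FTL, the light chain that helps the iron core form, had 18675, 18701, 18568 and 19089 in MPP 2D, against 19301, 17535, 16425 and 17093 in untreated 2D (log2 0.095, adjusted p = 0.410). FTL values in MPP 3D were 34234, 28136, 25588 and 32666, against 23138, 26699, 29475 and 26937 in untreated 3D (log2 0.18, adjusted p = 0.108). FTL overlapped between MPP and untreated in both cultures, but every 3D library was above every 2D library. It was 1.51-fold higher in untreated 3D than in untreated 2D (log2 0.59, SE 0.085, adjusted p = 5.90e-06) and 1.60-fold higher in MPP 3D than in MPP 2D (log2 0.68, SE 0.085, adjusted p = 1.52e-06). FTH1 was not called by culture (log2 0.15, adjusted p = 0.0766 untreated, log2 0.14, adjusted p = 0.0974 with MPP). FTH1 gained a call between the untreated cultures without any 1 of untreated 3D replicates 1 and 3 (adjusted p = 0.0268 to 0.0491), and with DESeq2 (0.0488). FTL gained a call for MPP in 3D without any 1 of MPP 3D replicate 3 and untreated 3D replicate 3 (adjusted p = 0.0216 to 0.0438). It did so too with equal library totals (adjusted p = 0.0115) and equal nuclear totals (0.0189). GENCODE 29 names 25 pseudogenes after FTH1 and 16 after FTL, so reads of these genes can be shared with near copies.

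SLC40A1, ferroportin, the only known iron exporter of vertebrate cells, averaged 927 ± 59.1 in MPP 3D and 684 ± 89.9 in untreated 3D, without overlap (1.36-fold, log2 0.44, SE 0.10, adjusted p = 0.00138). In 2D it averaged 679 ± 60.0 with MPP and 628 ± 23.6 without (log2 0.11, SE 0.10, adjusted p = 0.428). The difference of these effects did not pass the test (log2 0.34, adjusted p = 0.117), but did without untreated 3D replicate 2 (adjusted p = 0.0399). SLC40A1 was higher in MPP 3D than in MPP 2D (log2 0.45, adjusted p = 0.00107) and not called between the untreated cultures (log2 0.11, adjusted p = 0.372).

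**Figure D3:**
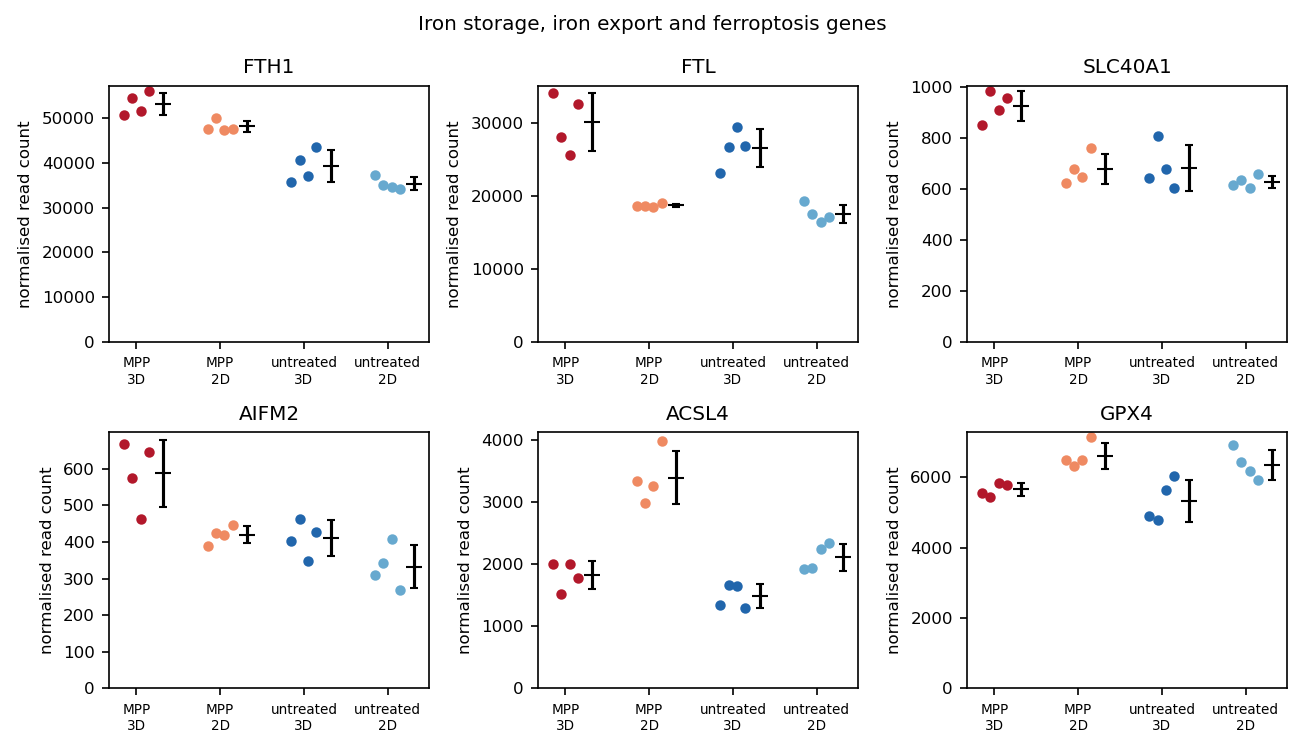
Normalised read counts of 6 iron and ferroptosis genes in all 16 libraries; points are replicates 1 to 4 from left to right, and the line and bar are mean and SD (n = 4). FTH1 is higher with MPP in both cultures, FTL is higher in both 3D groups, ACSL4 is highest in MPP 2D, and GPX4 overlaps between MPP and untreated.

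ACSL4 and AIFM2 act on opposite sides of ferroptosis. ACSL4, which loads polyunsaturated fatty acids into membrane lipids, had 3345, 2992, 3259 and 3992 normalised reads in MPP 2D, against 1919, 1946, 2247 and 2345 in untreated 2D. All MPP 2D libraries were above the untreated ones, and ACSL4 was 1.60-fold higher (log2 0.68, SE 0.11, adjusted p = 4.42e-05). In MPP 3D it had 2000.0, 1529, 2008 and 1783, against 1349, 1667, 1650.4 and 1290.2 in untreated 3D, and these overlapped (log2 0.30, SE 0.11, adjusted p = 0.0367). The 3D call was weak: the ACSL4 MPP call in 3D was lost when any 1 of MPP 3D replicates 1, 3 and 4 and untreated 3D replicates 1 and 4 was left out (adjusted p = 0.0574 to 0.116), and with a fit of only the groups compared (0.0740). The difference of the MPP effects did not pass the test (log2 -0.38, SE 0.15, adjusted p = 0.0986). By culture ACSL4 was 0.703 times as high in untreated 3D as in untreated 2D (log2 -0.51, adjusted p = 0.000551) and 0.539 times as high in MPP 3D as in MPP 2D (log2 -0.89, adjusted p = 9.75e-07).

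AIFM2, also called FSP1, which regenerates ubiquinol to stop lipid peroxidation, had 666, 574, 464 and 645 in MPP 3D, against 403, 464, 348 and 427 in untreated 3D. In MPP 2D it had 390.1, 423, 419.8 and 446, against 309, 341, 408 and 269 in untreated 2D. MPP 3D replicate 3 was level with untreated 3D replicate 2, the lowest and highest of their groups, and the 2D groups overlapped. AIFM2 was 1.42-fold higher in 3D (log2 0.51, SE 0.14, adjusted p = 0.00629), and in 2D the p was just over the threshold (log2 0.35, SE 0.14, adjusted p = 0.0517). It was higher in MPP 3D than in MPP 2D (log2 0.47, adjusted p = 0.00965) and not called between the untreated cultures (log2 0.31, adjusted p = 0.0672). The difference of the MPP effects did not pass the test (log2 0.16, adjusted p = 0.658). AIFM2 gained a call for MPP in 2D without any 1 of MPP 3D replicates 1 and 3, untreated 3D replicate 3 and untreated 2D replicate 3 (adjusted p = 0.0180 to 0.0485). It did so too with equal library totals (adjusted p = 0.0117) and a fit of only the groups compared (0.0424). DESeq2 (adjusted p = 0.0469) and a minimum mean of 50 (0.0451) also gave that call. AIFM2 gained a call between the untreated cultures without any 1 of MPP 3D replicate 3, untreated 3D replicate 3 and untreated 2D replicate 3 (adjusted p = 0.0214 to 0.0488).

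None of the 3 glutathione transferases was called with MPP. GSTP1, the main cytosolic form of many tumour cells, averaged 7482 ± 783, 7159 ± 108, 7331 ± 567 and 7248 ± 452 in MPP 3D, MPP 2D, untreated 3D and untreated 2D, and GSTM3 averaged 1427 ± 202, 1683 ± 162, 1252 ± 154 and 1455 ± 64.8; neither was called in any comparison. GSTM3 gained a call for MPP in 3D without MPP 3D replicate 1 (adjusted p = 0.0452) and with equal library totals (0.0357). For MPP in 2D it gained a call with equal library totals (adjusted p = 0.0215) and a fit of only the groups compared (0.0397). GSTM3 gained a call between the untreated cultures without any 1 of untreated 3D replicates 3 and 4 (adjusted p = 0.0424 to 0.0444), and with equal nuclear totals (0.0155). GSTM3 gained a call between the MPP groups without any 1 of MPP 3D replicate 3 and MPP 2D replicate 1 (adjusted p = 0.0177 to 0.0339). MGST1, a membrane-bound form that also protects membrane lipids, was a low gene on the dish and nearly undetected in the scaffold. It had 10.8, 0, 0 and 3.68 in MPP 3D, against 42.8, 21.6, 12.2 and 38.7 in MPP 2D. Untreated 3D libraries had 0, 0, 2.81 and 0, against 15.5, 26.7, 7.85 and 16.9 in untreated 2D. No 3D library reached the lowest 2D library of its own treatment. In whole reads these were 2 in untreated 3D against 70 in untreated 2D, a ratio of 0.0391 after size factors (95% exact interval 0.00464 to 0.147), and 16 in MPP 3D against 132 in MPP 2D, a ratio of 0.121 (0.0672 to 0.204). The intervals cover counting error only. The fitted differences, which lean on the added 1 at such low values, were called (log2 -3.56, SE 0.80, adjusted p = 0.000927 untreated, log2 -3.30, SE 0.80, adjusted p = 0.00230 with MPP). MPP did not give a call in 2D (log2 0.71, adjusted p = 0.525) or 3D (log2 0.97, adjusted p = 0.373).

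Set side by side, culture without toxin changed 16 of the 37 genes, 6 higher and 10 lower in 3D, or 43.2%, beside 46.1% of all genes called (23.2% higher and 23.0% lower), a share near that of all genes. Between the MPP groups it changed 21, 8 higher and 13 lower, or 56.8%, beside 38.9% of all genes (19.0% higher and 19.9% lower). SRXN1, GSR, TXNIP, PRDX6 and FTL were higher in 3D in both comparisons. GSS, GPX1, GPX4, TXN, PRDX2, CAT, PGD, ACSL4 and MGST1 were lower in 3D in both. The libraries did not overlap for 13 genes without toxin, where 39.7% of all genes had groups apart, and for 19 with MPP, where 37.5% did. With equal nuclear totals the untreated split was 5 higher and 14 lower, and higher calls were 38.3% of all called genes against 50.2% as deposited. The median log2 difference of the 37 genes was -0.04 without toxin and -0.05 with MPP. KEAP1, HMOX1, GCLC, TXNRD1, PRDX3, GSTP1 and GSTM3 were called in none of the 4 pairwise comparisons.

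**Figure D4:**
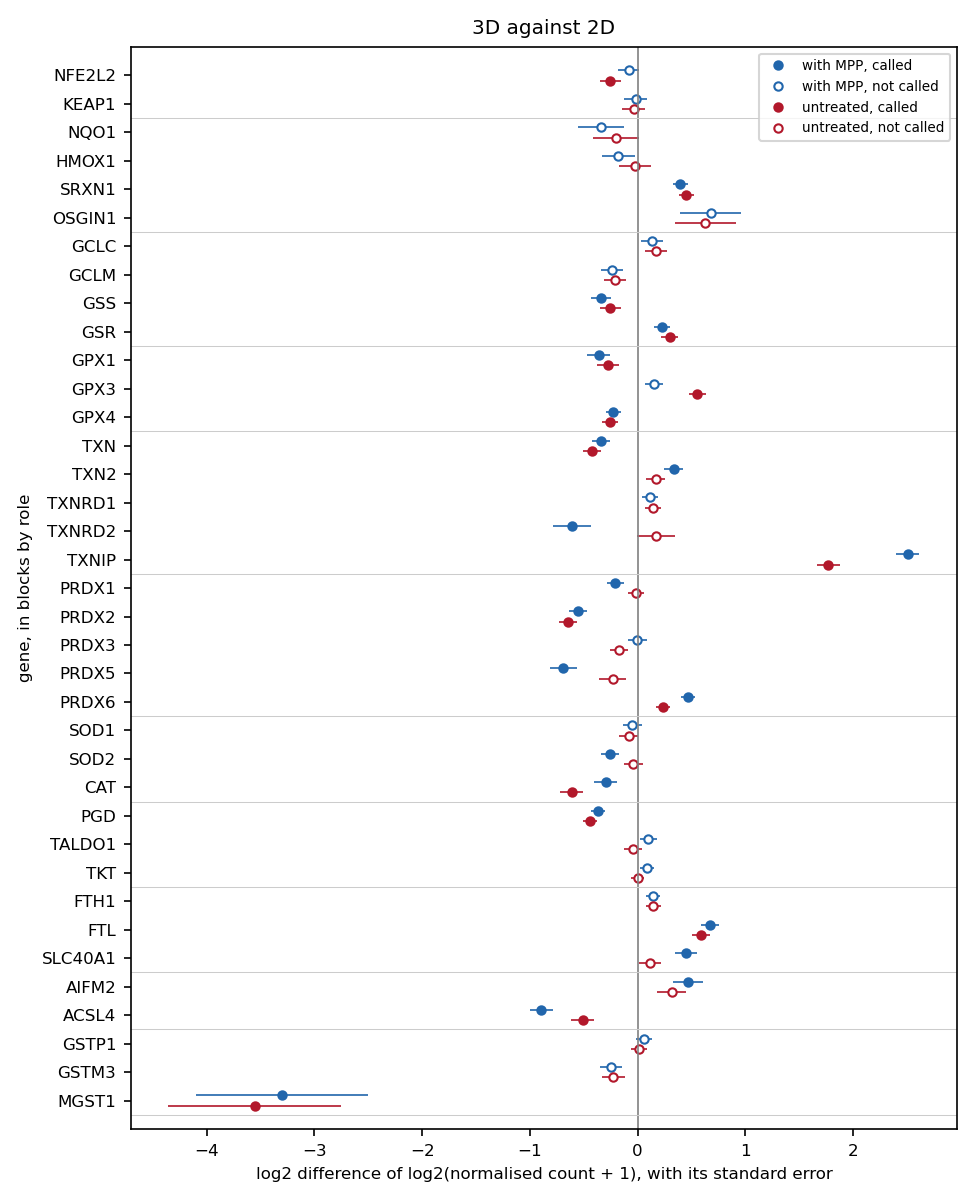
3D minus 2D on the log2(normalised count + 1) scale for the 37 genes, with MPP and untreated cultures shown apart; points are limma estimates, bars their standard errors and filled points called genes. TXNIP stands at 2.51 with MPP and 1.77 untreated, MGST1 at -3.30 and -3.56, and most others lie within 0.7 of 0.

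The response to MPP differed between the cultures for 3 of the 37 genes, or 8.11%, beside 15.3% of all genes (7.00% higher and 8.32% lower). TXNIP was higher in that difference, and GPX3 and TXNRD2 were lower. With equal nuclear totals 3 genes were higher in the difference, TXNIP, PRDX6 and SLC40A1, and none was lower, and higher calls were 66.9% of all called genes against 45.7% as deposited; GPX3 and TXNRD2 then missed the threshold as given above. For no gene of the 37 did the difference reach an absolute log2 of 1, which 5.37% of all genes did with a call. In the pairwise comparisons a call with an absolute log2 difference of 1 or more was held by 3 genes for MPP in 2D (6.38% of all genes), 3 for MPP in 3D (6.55%), 2 for culture without toxin (12.4%) and 2 with MPP (8.08%). For culture these were TXNIP and MGST1 each time, and MGST1 passed the filter only because of its 2D values.

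**Figure D5:**
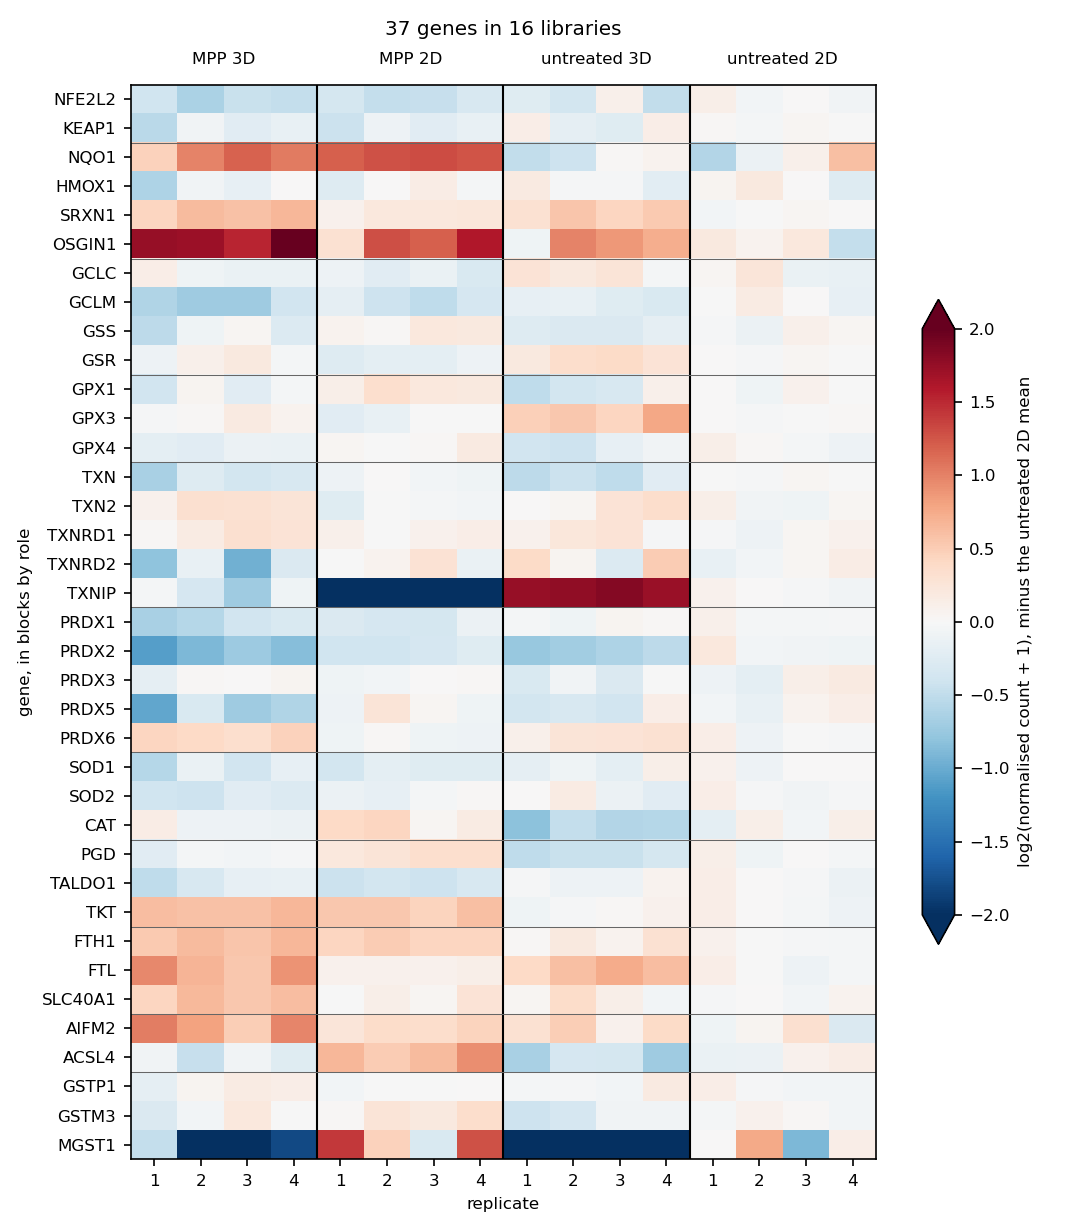
Each gene's log2(normalised count + 1) in each library minus its untreated 2D mean, with genes in rows by role and libraries in columns ordered MPP 3D, MPP 2D, untreated 3D and untreated 2D; colours stop at an absolute value of 2. TXNIP is high in untreated 3D and low in MPP 2D, NQO1 and OSGIN1 are high in both MPP groups, MGST1 is low in both 3D groups, and most other rows stay near 0.

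Further genes of these pathways were taken from 6 lists chosen with earlier results of these data known. Of 22 tested NRF2 partners and other NRF2 targets, MPP raised 8 and lowered 1 in 2D, or 40.9% called beside 34.5% of all genes, and raised 5 and lowered none in 3D, or 22.7% beside 34.6%. SLC7A11, the cystine importer that feeds glutathione synthesis, averaged 385 normalised reads in MPP 2D and 14.1 in untreated 2D (log2 5.20, adjusted p = 3.13e-09), and 458 in MPP 3D and 124 in untreated 3D (log2 1.94, adjusted p = 0.000920). The difference of these effects was called (log2 -3.26, adjusted p = 0.000393). AKR1C1, an aldo-keto reductase, averaged 394 in MPP 2D and 160.3 in untreated 2D (log2 1.31, adjusted p = 0.000194), and 527 in MPP 3D and 222 in untreated 3D (log2 1.30, adjusted p = 0.000199). SQSTM1, the p62 protein that competes with NRF2 for KEAP1, was higher in 2D with MPP (log2 0.50, adjusted p = 9.31e-07) and differed between the cultures in that effect (log2 -0.59, adjusted p = 1.86e-05). AKR1B10 was not analysed here.

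Of 23 further ferroptosis genes tested, MPP raised 11 and lowered 4 in 2D and raised 13 and lowered 2 in 3D, or 65.2% called in each culture, beside 34.5% of all genes in 2D and 34.6% in 3D. TFRC, the transferrin receptor that takes up iron, averaged 5019 in MPP 2D and 1388 in untreated 2D (log2 1.86, adjusted p = 1.01e-09), and 12619 in MPP 3D and 6745 in untreated 3D (log2 0.94, adjusted p = 1.61e-05). CHAC1, which degrades glutathione, averaged 893 in MPP 2D and 169.7 in untreated 2D (log2 2.40, adjusted p = 1.68e-11). SCD, which makes monounsaturated fatty acids, was higher with MPP in 2D (log2 1.31, adjusted p = 5.02e-11). SAT1, a polyamine acetylase, was higher with MPP in 3D at 315, against 151 in untreated 3D (log2 1.05, adjusted p = 4.06e-06), as was POR, an electron donor to cytochromes P450 (log2 0.39, adjusted p = 0.000107). The MPP effect was smaller in 3D for CHAC1 (log2 -1.79, adjusted p = 8.37e-07), SCD (log2 -1.03, adjusted p = 9.04e-07) and TFRC (log2 -0.93, adjusted p = 0.00188). ALOX5 and PTGS2 were not analysed here.

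Of 25 further glutathione genes tested, MPP raised 5 and lowered 4 in 2D, or 36% called, a share near the 34.5% of all genes, and raised 4 and lowered 8 in 3D, or 48% beside 34.6%. The cytosolic transferase GSTM4 (log2 0.71, adjusted p = 5.26e-06) and GSTZ1, which acts in tyrosine breakdown (log2 0.60, adjusted p = 9.47e-06), were higher with MPP in 3D, and GGT5, a gamma-glutamyltransferase, was lower at 21.4 in MPP 3D, against 76.9 in untreated 3D (log2 -1.88, adjusted p = 0.000723). GSTK1 was higher (log2 0.47, adjusted p = 1.03e-05) and CHAC2 lower (log2 -1.40, adjusted p = 0.000183) with MPP in 2D. Of 17 further iron and haem genes, MPP raised 6 and lowered 3 in 2D, or 52.9% beside 34.5% of all genes, and raised 4 and lowered 4 in 3D, or 47.1% beside 34.6%. STEAP3, an iron reductase of endosomes, was higher with MPP in 2D (log2 0.56, adjusted p = 0.000372) and 3D (log2 0.61, adjusted p = 0.000146). FBXL5, the iron sensor that removes iron regulatory proteins, was higher in 2D (log2 0.47, adjusted p = 0.000219), and PCBP1, an iron chaperone, was lower in 3D (log2 -0.52, adjusted p = 1.23e-06). HMOX2 and FTMT were not analysed here.

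Of 21 further selenoprotein and thioredoxin genes, MPP raised 3 and lowered 5 in 2D, or 38.1% called, a share near the 34.5% of all genes, and raised 5 and lowered 6 in 3D, or 52.4% beside 34.6%. SESN2, a stress-induced sestrin, averaged 1641 in MPP 2D and 555 in untreated 2D (log2 1.57, adjusted p = 1.33e-10), and 2562 in MPP 3D and 1384 in untreated 3D (log2 0.89, adjusted p = 6.32e-07). EEFSEC, the elongation factor for selenocysteine (log2 -0.56, adjusted p = 4.01e-05), and PRDX4, a peroxiredoxin of the endoplasmic reticulum (log2 -0.41, adjusted p = 0.00298), were lower with MPP in 2D. Of 19 further NADPH genes, MPP raised 8 and lowered 1 in 2D, or 47.4% beside 34.5% of all genes, and raised 10 and lowered 1 in 3D, or 57.9% beside 34.6%. MTHFD2, a mitochondrial folate enzyme, averaged 3533 in MPP 2D and 1436 in untreated 2D (log2 1.30, adjusted p = 1.31e-12), and 4979 in MPP 3D and 2245 in untreated 3D (log2 1.15, adjusted p = 5.62e-12). Its pathway partners MTHFD1L (log2 0.85, adjusted p = 2.42e-08 in 2D, log2 0.78, adjusted p = 6.57e-08 in 3D) and ALDH1L2 (log2 1.37, adjusted p = 1.06e-07 in 2D, log2 1.17, adjusted p = 8.54e-07 in 3D) were higher in both cultures.

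By culture without toxin, 3D raised 4 and lowered 4 of the 22 NRF2 genes, 6 and 8 of the 23 ferroptosis genes, 5 and 8 of the 25 glutathione genes, 7 and 4 of the 17 iron genes, 7 and 3 of the 21 selenoprotein genes and 3 and 8 of the 19 NADPH genes. The shares called were 36.4%, 60.9%, 52%, 64.7%, 47.6% and 57.9% in that order of lists, beside 46.1% of all genes, so that of the NRF2 list was below it and that of the selenoprotein list near it. With MPP the counts were 2 and 7, 8 and 6, 3 and 10, 4 and 5, 8 and 2, and 3 and 7 in the same order of lists, or 40.9%, 60.9%, 52%, 52.9%, 47.6% and 52.6% called, beside 38.9% of all genes, which the NRF2 share was near. CHAC1 (log2 2.93, adjusted p = 1.23e-13), TFRC (log2 2.25, adjusted p = 1.11e-11), OPLAH, which recycles oxoproline (log2 2.68, adjusted p = 1.32e-06), SESN2 (log2 1.32, adjusted p = 6.52e-10) and SLC3A2, the partner chain of the cystine importer (log2 1.68, adjusted p = 3.92e-13), were higher in untreated 3D than in untreated 2D. IDH1, which makes cytosolic NADPH, was lower in 3D both untreated (log2 -0.84, adjusted p = 2.08e-09) and with MPP (log2 -0.76, adjusted p = 1.64e-08), and so was STEAP3 (log2 -0.96, adjusted p = 2.53e-07 untreated, log2 -0.91, adjusted p = 8.55e-07 with MPP). TFRC was higher in MPP 3D than in MPP 2D (log2 1.33, adjusted p = 9.86e-08), and SCD was lower (log2 -1.18, adjusted p = 1.25e-10). The marker sums given at the start also moved with these comparisons, and their part in the results was not tested.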

How the data were processed

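The deposited values are a signal, made by the authors from reads counted per gene and scaled by a single DESeq2 size factor for each library; STAR, featureCounts, DESeq2, FastQC and CASAVA 1.8.2 are listed, with build GRCh38.p13, per the submitters' processing notes. No source used here gives the settings, the annotation or the strand used in counting. Libraries were made from poly-A selected RNA, per the labels' protocols. Every value was a whole multiple of 1 step per library within 0.01 reads, for 100.0% of values, so whole reads were recovered, 24589435 to 46359070 per library. Each of the 19898 genes had at least 11 reads in all. No pair of libraries of a group agreed within sampling noise (chi-square per degree of freedom 6.43 or more over 24 pairs), so all 16 were kept as separate libraries.

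Main results came from the trend option of limma 3.58.1 (R 4.3.3) applied to log2(value + 1), which understates the change of low genes, in 1 fit of all 16 libraries. Genes had to reach 10 in 4 or more libraries, which left 16984, and p was Benjamini-Hochberg adjusted over all of them. The fit was kept as the main test after whole reads were recovered, and it was tested on simulated data. Alternatives were DESeq2 1.42.0 and the quasi-likelihood test of edgeR 4.0.16 on recovered reads, 2 other scalings, no filter, a minimum mean of 50, pseudocounts of 5 and 0.5, only the groups compared, replicate blocks, and leaving out each library. The 37 genes, their roles and the pathway and marker lists were chosen with earlier results of these data known. All 37 were to be named, with every library's value for genes called at an absolute log2 difference of 1 or more and for 12 central genes; of each pathway list at most 3 genes of smallest p are named in a comparison. Sequences are from RefSeq (GRCh38.p14) promoters and GENCODE 29 transcripts. GENCODE 29 names pseudogenes after 12 of the 37 genes and has exons on the opposite strand of 10, so reads can be shared there. Genes that the naming rule takes and that do not appear in the text are not reported here.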

Additional observations from a re-analysis of the deposited data

Results flagged for a closer look

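Of 148 sets of 4 libraries, the 37 genes in each of the 4 groups, 9 held a library set far apart from the rest by Dixon's test, where chance flags about 1 in 20. SRXN1 in MPP 2D was lowest in replicate 1, at 2392 normalised reads against 2609 to 2634 in the others. PRDX1 in untreated 2D was highest in replicate 1, at 4988 normalised reads against 4528 to 4583 in the others. PRDX2 in untreated 2D was highest in replicate 1, at 7621 normalised reads against 6190.1 to 6319 in the others. PRDX5 in untreated 3D was highest in replicate 4, at 6099 normalised reads against 4231 to 4457 in the others. CAT in MPP 3D was highest in replicate 1, at 907 normalised reads against 755 to 761 in the others. PGD in MPP 3D was lowest in replicate 1, at 6105 normalised reads against 6891 to 7031 in the others. FTH1 in MPP 2D was highest in replicate 2, at 50095 normalised reads against 47490.3 to 47681 in the others. GSTP1 in untreated 3D was highest in replicate 4, at 8179 normalised reads against 6992 to 7085 in the others. MGST1 in untreated 3D was highest in replicate 3, at 2.81 normalised reads against 0 in each of the others. Untreated 2D replicate 1, untreated 3D replicate 4 and MPP 3D replicate 1 each hold 2 of these values.

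The effect of MPP differed between 3D and 2D in the limma test of the difference itself for 3 genes. The difference of log2 effects, 3D minus 2D, was -0.40 for GPX3, -0.78 for TXNRD2 and 0.74 for TXNIP, at adjusted p = 0.0183, 0.0405 and 0.00158.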

How the results depend on the processing

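Of 4953 member values under an alternative, 4745 stayed on their side of the threshold, 121 lost a call and 87 gained one. None of the called values changed direction, and 112 values called in neither fit changed sign. Members called ranged over leaving out 1 library from 12 to 16 for MPP in 2D, 17 to 22 for MPP in 3D, 13 to 19 for untreated 3D against 2D, 16 to 22 between the MPP groups and 2 to 4 for the difference of effects. Calls held under all alternatives for 10 of 13, 13 of 21, 12 of 16, 16 of 21 and 1 of 3 members. Of the members not called, 7, 8, 9, 4 and 3 gained a call under some alternative, in that order of comparisons. Replicate numbers were tested as a paired design: with a replicate block, limma called 14, 20, 17, 22 and 3 members and edgeR 14, 19, 17, 22 and 3, in that order of comparisons. The PRDX6 call for MPP in 3D was lost with both blocks (adjusted p = 0.0681 in limma and 0.0688 in edgeR), and the SOD1 call with the edgeR block (0.0523). Same-numbered libraries correlated at r = -0.115 to 0.0896 in their deviations from the group means, 0 of 24 pairs above 0.1 and 12 of 48 best with their own number, so the numbers were not taken as pairing. Over all genes, edgeR on the recovered reads called 5876, 5815, 7722, 6677 and 2571. Depth bears most on MGST1, with 2 reads in the 4 untreated 3D libraries together.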

Other observations

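ARRDC4, the arrestin-domain relative of TXNIP, was looked at after the TXNIP values were seen. It averaged 595 normalised reads in MPP 2D and 1384 in untreated 2D (log2 -1.22, SE 0.097, adjusted p = 3.01e-09), and 1585 in MPP 3D and 3967 in untreated 3D (log2 -1.33, SE 0.097, adjusted p = 4.42e-10), without overlap in either culture. It was higher in 3D than in 2D without toxin (log2 1.51, adjusted p = 2.32e-11) and with MPP (log2 1.40, adjusted p = 1.31e-10). Unlike that of TXNIP, the difference of its MPP effects was not called (log2 -0.11, adjusted p = 0.654); the difference between the 2 genes was not tested.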
